A study of Rattus norvegicus with 13 samples.

Results

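Chromatin remodelers and the enzymes that add or remove methyl groups on histones were examined in the ventricular zone (VZ), the layer of progenitor cells lining the ventricle, of newborn rats. The genes were taken by name: the SMARC, CHD and ARID genes, the lysine demethylases (KDM), the KMT2, KMT5 and SETD methyltransferases, and the subunits of Polycomb repressive complex 2 (*Ezh1*, *Ezh2*, *Eed*, *Suz12*). This gave 68 genes, each with 1 row, of the 14716 rows in the table. All 68 were among the 14606 rows whose mean over the pups was 10 normalized counts or more. Normalized counts are estimated reads divided by a size factor for each pup.

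The posterior VZ was laser captured on postnatal day (PN) 2 from Long Evans male pups, 1 per litter. The 7 control pups came from dams given deionized water without drug and are labelled euthyroid. The 6 PTU exposed pups came from dams given propylthiouracil (PTU), a drug that blocks the making of thyroid hormone, in their water at 3 ppm from gestational day 6. The comparison asks which transcripts of the posterior VZ differ when thyroid hormone is low. A captured strip of tissue holds several cell types, and in such bulk samples fewer cells of a type cannot be told apart from less RNA per cell.

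Remodelers use ATP to slide, eject or exchange nucleosomes. SWI/SNF (BAF) complexes mostly open chromatin, ISWI complexes space nucleosomes, and the CHD family includes the motor subunits of the repressive NuRD complex. Histone methyltransferases and demethylases set marks that go with active genes or with repressed genes, and Polycomb repressive complex 2 (PRC2) writes a repressive mark on histone H3. In the developing brain several of these complexes exchange subunits as neural progenitors become neurons, and many of the genes are mutated in human neurodevelopmental disorders.

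The 68 genes differed little between the groups. Limma was run on log2(normalized count + 1) with Benjamini-Hochberg adjustment over all rows. Of the 68 genes, 0 had an adjusted p of at most 0.05, against 0% of all rows, and the lowest adjusted p among them was 0.148. The study itself, with DESeq2 on the same pups, did report differing genes at an adjusted p of at most 0.05. The 0 here thus holds for limma on these values. At an unadjusted p under 0.05 there were 6 genes, or 8.82%, against 16.3% of all rows. Of these, 4 were higher in PTU exposed pups (*Suz12*, *Kdm5b*, *Kdm1b*, *Smarca1*), where 8.11% of all rows were, and 2 were lower (*Arid5b*, *Chd4*), where 8.2% of all rows were. For 0 of the 68 genes were the groups fully separated, as they were for 0.596% of all rows. With equal totals for all pups the split was 5 higher (*Arid3b*, *Chd5*, *Kdm1b*, *Kdm5b*, *Suz12*) and 0 lower, beside 1584 higher and 81 lower over all rows. These are counts to be read against all rows and not calls.

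The sizes of the differences were also small. The log2 fold change (PTU minus control) was above 0 for 36 genes and below 0 for 32, with a median of 0.00, the same as for all rows. Its size without sign had a median of 0.0804 in the 68 genes and 0.167 in all rows. Differences of more than 0.25 on the log2 scale, up or down, were found for 7 genes (10.3%), against 34% of all rows. Most of the 68 are well expressed, and low rows vary more. Among the 50 with a mean of at least 1000 normalized counts, 4 went beyond 0.25 and 5 had an unadjusted p under 0.05, against 20.04% and 21.3% of the 4506 rows of that level. With equal totals for all pups, the median log2 fold change was 0.21 in the 68 genes and 0.20 in all rows, so the values below hold relative to the deposited scaling. The median standard error of the log2 fold change was 0.0982 in the 68 genes and 0.154 in all rows.

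**Figure D1:**
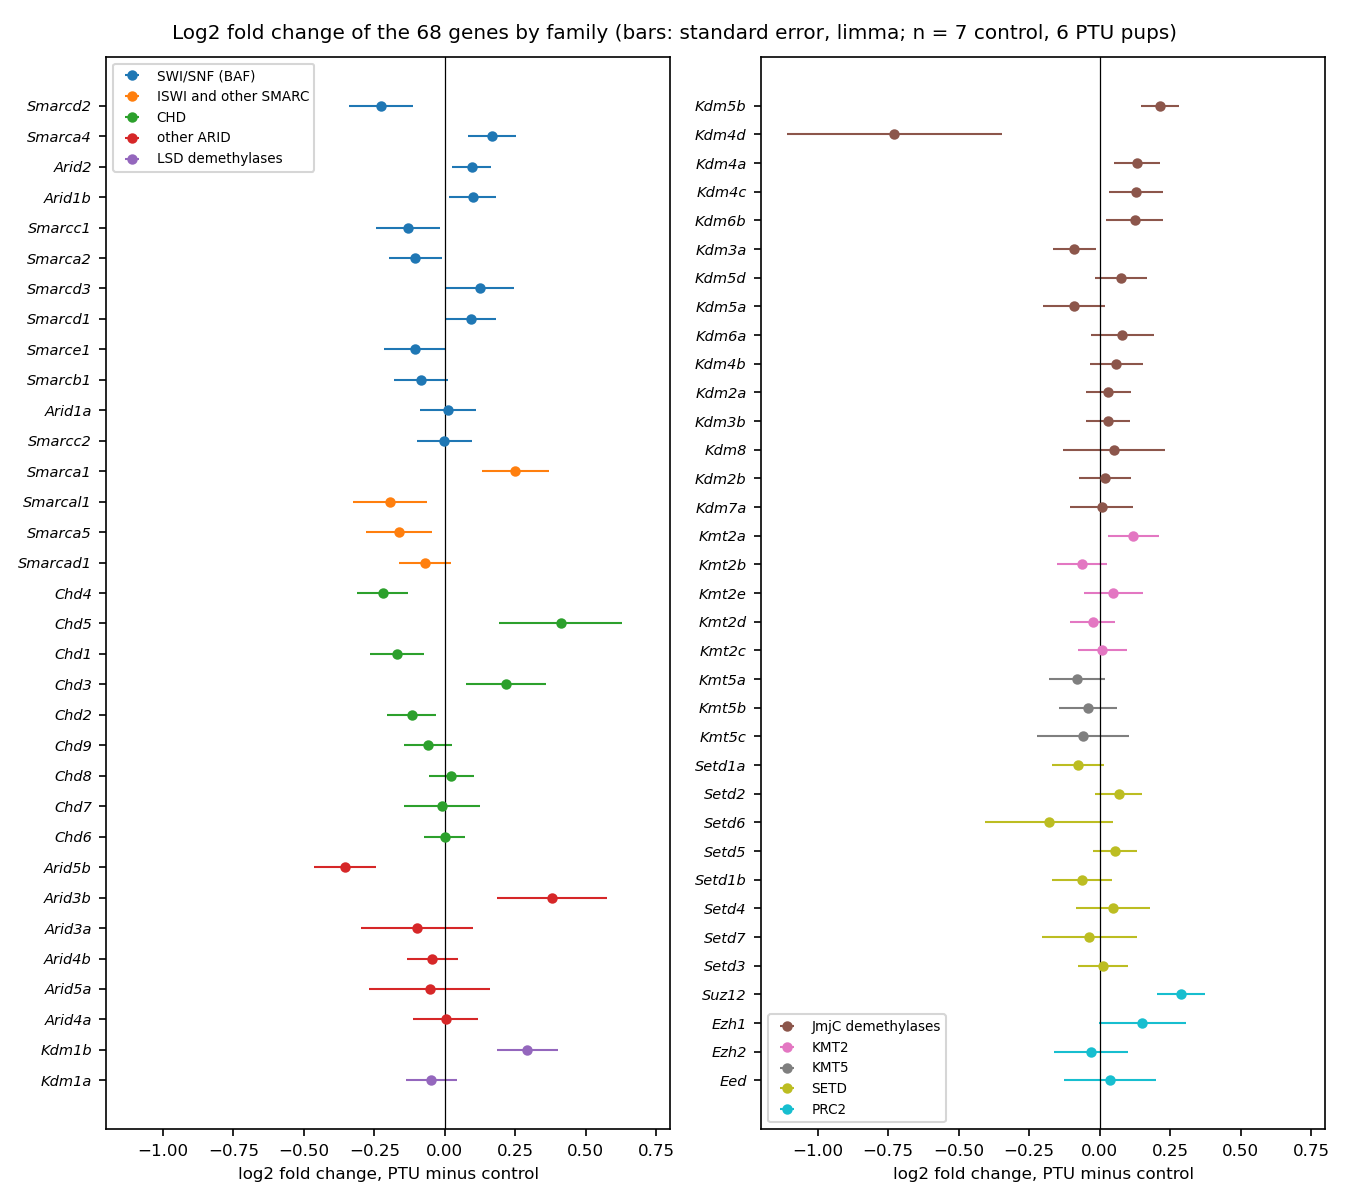
Log2 fold change (PTU minus control, horizontal axis) of each of the 68 genes, coloured by family, with bars for the standard error from limma (7 control and 6 PTU exposed pups). Within a family the genes are in order of their unadjusted p. Most points lie within 0.25 of 0, and *Kdm4d*, the gene with the fewest reads, has the widest bar.

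Depth estimated from the spacing of low values was 22296073 to 43514353 reads in control pups (median 35214737) and 28416488 to 44389920 in PTU exposed pups (median 34262206.5). The cell content of the captured tissue was described by summed markers. The 11 radial glia and VZ markers were all measured and all had a log2 fold change below 0, 6 of them with an unadjusted p under 0.05. Their sum was 84612 to 114491 normalized counts in control pups and 70417 to 91870 in PTU exposed pups. All 11 choroid plexus markers also had values below 0 (7 with an unadjusted p under 0.05; sums 52312 to 146769 and 24399 to 104624). Per the study's text, choroid plexus cells were not part of the sequenced tissue. All 12 neuron markers had values above 0 (5 with an unadjusted p under 0.05), with sums of 56860 to 81257 and 72979 to 135113. The highest neuron sums, 135113 and 104528, were in PTU replicates 1 and 6. The same pups had the lowest radial glia and VZ sums (72736 and 70417) and the lowest ependyma sums (931 and 905). PTU replicate 6 also had the lowest choroid plexus sum, 24399. Leaving these pups out thus changes more than neuron content. Markers of other cells gave fewer: 1 of 8 for dividing cells and 1 of 5 for ependyma were lower at an unadjusted p under 0.05, as were 2 of 8 for microglia, a list with 5 values above 0 and 3 below. All 7 markers of the oligodendrocyte lineage had values above 0, 2 of them at that threshold, and for endothelium it was 0 of 6. No marker of these lists had an adjusted p of at most 0.05 in limma. Whether cell content has a part in the gene values below was not tested. Values without those 2 pups, chosen after the data were seen, are given beside some genes. The 4 PTU exposed pups left still had neuron sums of 72979 to 92527.

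*Suz12* encodes a PRC2 subunit without which the complex does not assemble. Its lowest, median and highest normalized counts were 1516, 1692 and 1857 in control pups and 1847, 2071 and 2326 in the PTU group. The ranges met over a narrow stretch: 5 of 6 PTU exposed pups were above the highest control, and 6 of 7 controls were below the lowest PTU exposed pup. The log2 fold change was 0.29 (SE 0.08; exact permutation test, two-sided, p = 0.00117; limma adjusted p = 0.148). Without the 2 pups with the highest neuron sums it was 0.36.

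The other PRC2 subunits gave smaller differences. *Ezh2*, the catalytic subunit that dominates in dividing cells, had 1591, 2174 and 2569 normalized counts (lowest, median, highest) in control pups and 1446, 2198 and 2334 in PTU exposed pups. The ranges overlapped almost fully, and the log2 fold change of -0.03 had a 95% interval of -0.31 to 0.25. *Ezh1*, the catalytic subunit that prevails in non-dividing cells, had 0.15 (SE 0.15; 0.06 without the 2 pups with the highest neuron sums), and *Eed*, which binds the mark PRC2 writes, had 0.04 (SE 0.16). The direction for *Ezh2* turned to 0.17 with equal totals for all pups, and that for *Eed* to -0.06 with quality weights for the pups. Of the 4 subunits, *Suz12* alone had an unadjusted p under 0.05.

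*Kdm5b* encodes a JmjC demethylase that removes methyl groups from lysine 4 of histone H3, a mark of active promoters. Control pups had 3598, 3694 and 4172 normalized counts and PTU exposed pups 3979, 4490 and 4676 (lowest, median, highest). All 6 PTU exposed pups were above the control mean and 5 were above the highest control. The log2 fold change was 0.21 (SE 0.07; exact permutation test, two-sided, p = 0.0035; limma adjusted p = 0.171), and 0.23 without the 2 pups named above.

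*Kdm1b* (LSD2) is the less studied of the flavin-dependent demethylases and acts in gene bodies and in the oocyte. Its normalized counts were 476, 591 and 651 in control pups and 563, 716 and 768 in PTU exposed pups. Of the PTU exposed pups 5 were above the highest control, and the remaining pup, replicate 2, lay among the controls. The log2 fold change was 0.29 (SE 0.11; exact permutation test, two-sided, p = 0.0122; limma adjusted p = 0.207), and 0.24 without the 2 pups with the highest neuron sums, where its unadjusted p was no longer under 0.05. *Kdm1a* (LSD1), a subunit of the CoREST repressor complex, had medians of 2937 and 2985 normalized counts and a log2 fold change of -0.05 (SE 0.09).

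**Figure D2:**
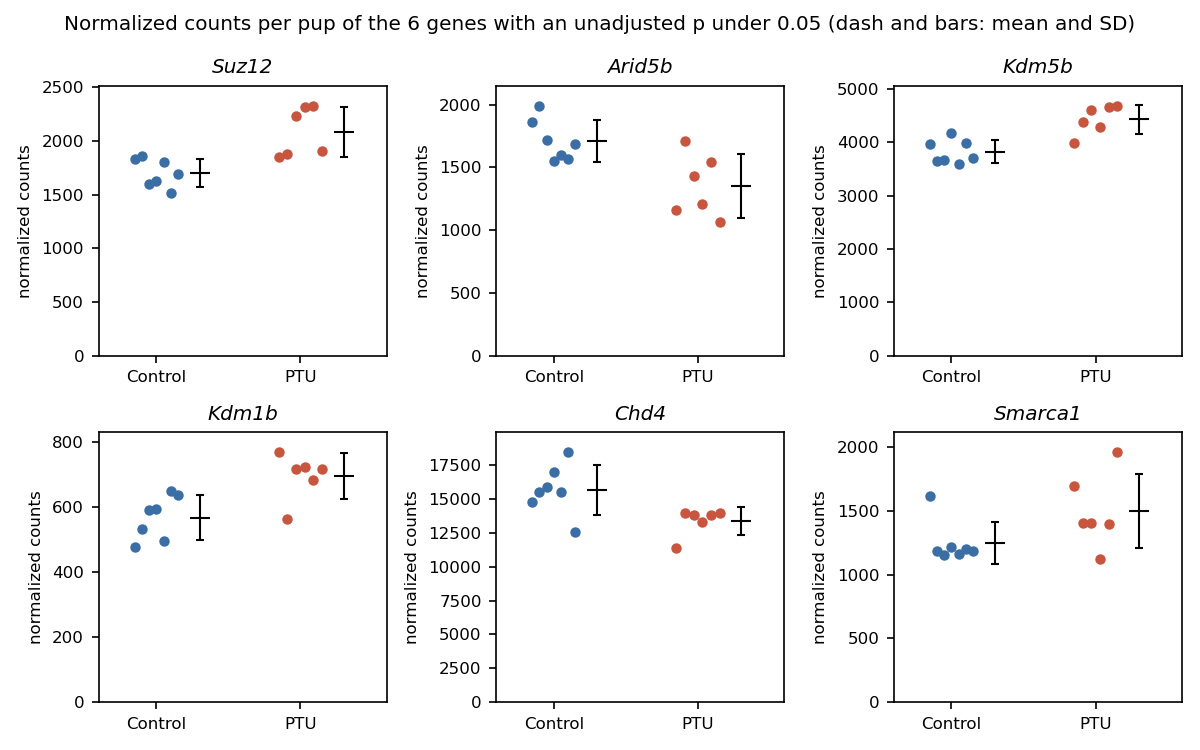
Normalized counts (vertical axes from 0) of the 6 genes with an unadjusted p under 0.05 in limma, 1 point for each of 7 control (blue) and 6 PTU exposed pups (red), with the mean and SD beside them. The groups overlap in each panel, by the least in *Suz12*, where 5 PTU exposed pups lie above the highest control of 1857. None of the 6 had an adjusted p of at most 0.05.

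Bases upstream of the start are shown for *Suz12*, *Kdm5b* and *Kdm1b*. Of the 6 genes with an unadjusted p under 0.05, these had 100 bases before the outermost annotated start in the sequences used. For *Arid5b*, *Chd4* and *Smarca1* the sequences did not hold those 100 bases. The lines give the 100 bases that end just before the outermost annotated start, 5′ to 3′ on the strand of the gene, from RefSeq on GRCr8, a later build than the one the reads were aligned to. Capitals mark CG dinucleotides, of which there are 15, 7 and 9. The positions are chr10:65464848-65464947 (plus strand), chr13:48554267-48554366 (plus strand) and chr17:17850142-17850241 (minus strand).
*Suz12*: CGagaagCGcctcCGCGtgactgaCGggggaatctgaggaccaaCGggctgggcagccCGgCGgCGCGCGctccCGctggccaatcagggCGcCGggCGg
*Kdm5b*: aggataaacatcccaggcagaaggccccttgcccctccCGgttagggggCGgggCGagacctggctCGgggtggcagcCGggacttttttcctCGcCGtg
*Kdm1b*: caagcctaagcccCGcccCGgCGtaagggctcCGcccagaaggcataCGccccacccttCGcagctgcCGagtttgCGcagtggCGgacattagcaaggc
These are stretches dense in CG, as is usual at promoters of widely expressed genes.

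Promoter windows of 300 bases (250 before to 50 after the start) could be matched by symbol for 57 of the 68 genes. The ratio of observed to expected CG was above 0.6, a usual mark of a CpG island, in 49 of them (86.0%), in 72.4% of the 10177 tested genes with a window, and in 34.3% of all 33469 windows. Its median was 0.838 in the 68 genes' windows and 0.767 in those of the tested genes. AGGTCA, the hexamer that thyroid hormone receptors and other nuclear receptors bind, was searched on both strands and found in 3 windows (5.26%), against 11.6% of the tested genes and 16.2% of all windows. TATAAA, on both strands, was found in 3 (5.26%), against 6.15% and 14.2%. None of the windows of *Suz12*, *Arid5b*, *Kdm5b*, *Kdm1b*, *Chd4* and *Smarca1* holds AGGTCA. A match or its absence describes the letters of the window only.

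**Figure D3:**
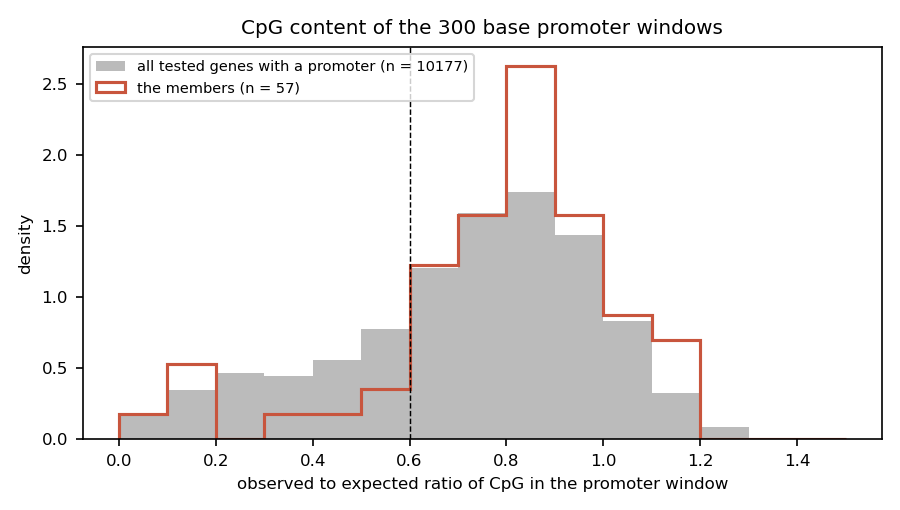
Density of the ratio of observed to expected CG (horizontal axis) in the 300 base promoter windows of 57 of the 68 genes (red line) and of the 10177 tested genes with a window (grey). The dashed line is at 0.6, and 86.0% of the red distribution and 72.4% of the grey lie above it.

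*Chd4* encodes the main motor subunit of NuRD in progenitor cells. Control pups had 12552, 15464 and 18399 normalized counts and PTU exposed pups 11341, 13827 and 13981 (lowest, median, highest). None of the 6 PTU exposed pups reached the control mean, 6 of 7 controls were above the highest PTU exposed pup, and control replicate 7 lay among the PTU exposed pups. *Chd4* had a log2 fold change of -0.22 (SE 0.09; exact permutation test, two-sided, p = 0.0198; limma adjusted p = 0.247), and -0.18 without the 2 pups with the highest neuron sums, where its unadjusted p was not under 0.05. With equal totals for all pups it was -0.02, while the median of all rows was 0.20.

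*Chd3* and *Chd5* encode the alternative NuRD motors, *Chd5* being largely confined to neurons. *Chd5* had 1253, 1519 and 1946 normalized counts in control pups and 1230, 1901 and 3798 in PTU exposed pups. This gave a log2 fold change of 0.41 (SE 0.22; limma adjusted p = 0.356), the highest of the 68 genes. Its upper values were those of PTU replicates 1 and 6, 3798 and 3162, the pups with the highest neuron sums, and without them the log2 fold change was 0.03. *Chd3* had 10232, 13526 and 18760 in control pups and 12647, 16049 and 19931 in PTU exposed pups (log2 fold change 0.22, SE 0.14, limma adjusted p = 0.451). The same 2 pups were its highest, and without them the value was 0.07.

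Of the other CHD genes, *Chd7*, mutated in CHARGE syndrome, had a log2 fold change of -0.01 (95% interval -0.30 to 0.27) and *Chd8*, mutated in autism, 0.02 (-0.15 to 0.19). *Chd1*, *Chd2*, *Chd6* and *Chd9* lay between -0.17 (*Chd1*) and 0.00 (*Chd6*). The median of the 9 CHD genes was -0.01, with 1 at an unadjusted p under 0.05.

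SWI/SNF gave 12 genes, of which limma gave 0 an unadjusted p under 0.05, and had a median log2 fold change of 0.00. In limma *Smarca4* fell under 0.05 with quality weights for the pups and with some single pups left out, such as PTU replicate 1. *Smarcd2* did so without control replicate 1 or without a variance trend. Of the ATPases, *Smarca4* (BRG1) had 8407, 10256 and 11402 normalized counts in control pups and 10376, 11505 and 12350 in PTU exposed pups. All 6 PTU exposed pups were above the control mean and 3 above the highest control. Its log2 fold change was 0.17 (SE 0.08; exact permutation test, two-sided, p = 0.0484; limma adjusted p = 0.33). The other ATPase, *Smarca2* (BRM), had -0.10 (SE 0.09). The direction for *Smarca2* turned to 0.10 with equal totals.

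*Smarcd2*, a variable subunit best known in blood cells, had the lowest unadjusted p of the complex. Its normalized counts were 338, 409.8 and 481 in control pups and 313, 371 and 377 in PTU exposed pups. None of the PTU exposed pups reached the control mean, and 6 of 7 controls were above the highest of them. This was a log2 fold change of -0.23 (SE 0.11; exact permutation test, two-sided, p = 0.0198; limma adjusted p = 0.326). It was -0.15 without PTU replicates 1 and 6, and -0.025 with equal totals for all pups. Its paralogs *Smarcd1* and *Smarcd3* had 0.09 (SE 0.09) and 0.12 (SE 0.12), the latter 0.04 without PTU replicate 1.

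The core and DNA-binding subunits of SWI/SNF were close to 0. The scaffold genes *Smarcc1* and *Smarcc2* had log2 fold changes of -0.13 (SE 0.11) and 0.00 (SE 0.10), and *Smarcb1*, a tumour suppressor subunit, -0.08 (SE 0.10). *Arid1a* and *Arid1b*, whose products define the canonical complex, had 0.01 (95% interval -0.20 to 0.22) and 0.10 (-0.08 to 0.28). *Arid2* of the PBAF form had 0.10 and *Smarce1* -0.10.

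*Smarca1* and *Smarca5* encode the ISWI motors SNF2L, more abundant in mature neurons, and SNF2H, more abundant in dividing progenitors. *Smarca1* had 1150, 1186 and 1612 normalized counts in control pups and 1118, 1403 and 1955 in PTU exposed pups. The groups overlapped over much of their range: control replicate 1 held the highest control value, and 2 of 6 PTU exposed pups were above it. A log2 fold change of 0.25 resulted (SE 0.12; exact permutation test, two-sided, p = 0.0816; limma adjusted p = 0.306). PTU replicates 1 and 6 were again its highest, and without them the value was 0.10. The unadjusted p was under 0.05 in 10 of 25 alternatives, and not without both pups or with equal totals. *Smarca5* had -0.16 (SE 0.12), and the other SMARC genes *Smarcal1*, a fork remodeling enzyme, and *Smarcad1* had -0.20 and -0.07.

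*Arid5b*, a DNA-binding partner of the demethylase PHF2 with known roles in fat and cartilage cells, had 1550, 1685 and 1989 normalized counts in control pups and 1062, 1317 and 1713 in PTU exposed pups. Of the PTU exposed pups 5 were below the lowest control, and replicate 2, at 1713, lay within the control range. On the log2 scale the fold change was -0.35 (SE 0.11; exact permutation test, two-sided, p = 0.00874; limma adjusted p = 0.163). PTU replicates 1 and 6 were its lowest pups, and without them the value was -0.22. With equal totals for all pups it was -0.15, and in neither case was the unadjusted p under 0.05. The other ARID genes outside SWI/SNF, *Arid3a*, *Arid3b*, *Arid4a*, *Arid4b* and *Arid5a*, ranged from -0.10 (*Arid3a*) to 0.38 (*Arid3b*), none with an unadjusted p under 0.05.

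The JmjC demethylases gave 15 genes, 12 with a log2 fold change above 0 and 3 below, with a median of 0.05. Of all 14606 rows, 7403 were above 0 and 7203 below. In this family 1 gene, *Kdm5b*, had an unadjusted p under 0.05 (6.67%), against 16.3% of all rows. With equal totals for all pups the family median was 0.25, beside 0.20 in all rows. *Kdm6a* and *Kdm6b*, which remove the mark that PRC2 writes, had 0.08 (SE 0.11) and 0.12 (SE 0.10). *Kdm4d* had the value farthest from 0 of the 68 genes, -0.73 (SE 0.38; limma adjusted p = 0.349), on the fewest reads, with 15.8 to 40.0 normalized counts in control pups and 7.11 to 28.5 in PTU exposed pups. The Y-linked *Kdm5d* was present in all 13 pups, which are labelled male. The remaining *Kdm2a*, *Kdm2b*, *Kdm3a*, *Kdm3b*, *Kdm4a*, *Kdm4b*, *Kdm4c*, *Kdm5a*, *Kdm7a* and *Kdm8* lay between -0.09 and 0.13.

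The methyltransferases outside PRC2 gave 16 genes, 0 of them with an unadjusted p under 0.05. *Kmt2a*, *Kmt2b*, *Kmt2c* and *Kmt2d* encode large enzymes of COMPASS complexes, which methylate lysine 4 of histone H3. *Kmt2a* had 6539, 7794 and 8988 normalized counts in control pups and 7044, 8749 and 9407 in PTU exposed pups, and 5 of 6 PTU exposed pups were above the control mean. Its log2 fold change of 0.12 had a 95% interval of -0.07 to 0.31. *Kmt2d*, mutated in Kabuki syndrome, had -0.03 (-0.20 to 0.14), and *Kmt2b*, *Kmt2c* and *Kmt2e* lay between -0.06 and 0.05.

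The KMT5 enzymes methylate lysine 20 of histone H4. *Kmt5a* had a log2 fold change of -0.08 (SE 0.10), and *Kmt5b* and *Kmt5c* had -0.04 and -0.06. In the SETD genes, *Setd1a*, the enzyme of a further COMPASS complex, had -0.08 (SE 0.09). *Setd2*, which methylates lysine 36 of histone H3 along transcribed genes, had 0.07 (95% interval -0.11 to 0.24), and *Setd5*, mutated in intellectual disability, 0.05 (-0.11 to 0.22). The remaining *Setd1b*, *Setd3*, *Setd4*, *Setd6* and *Setd7* lay between -0.18 and 0.05.

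**Figure D4:**
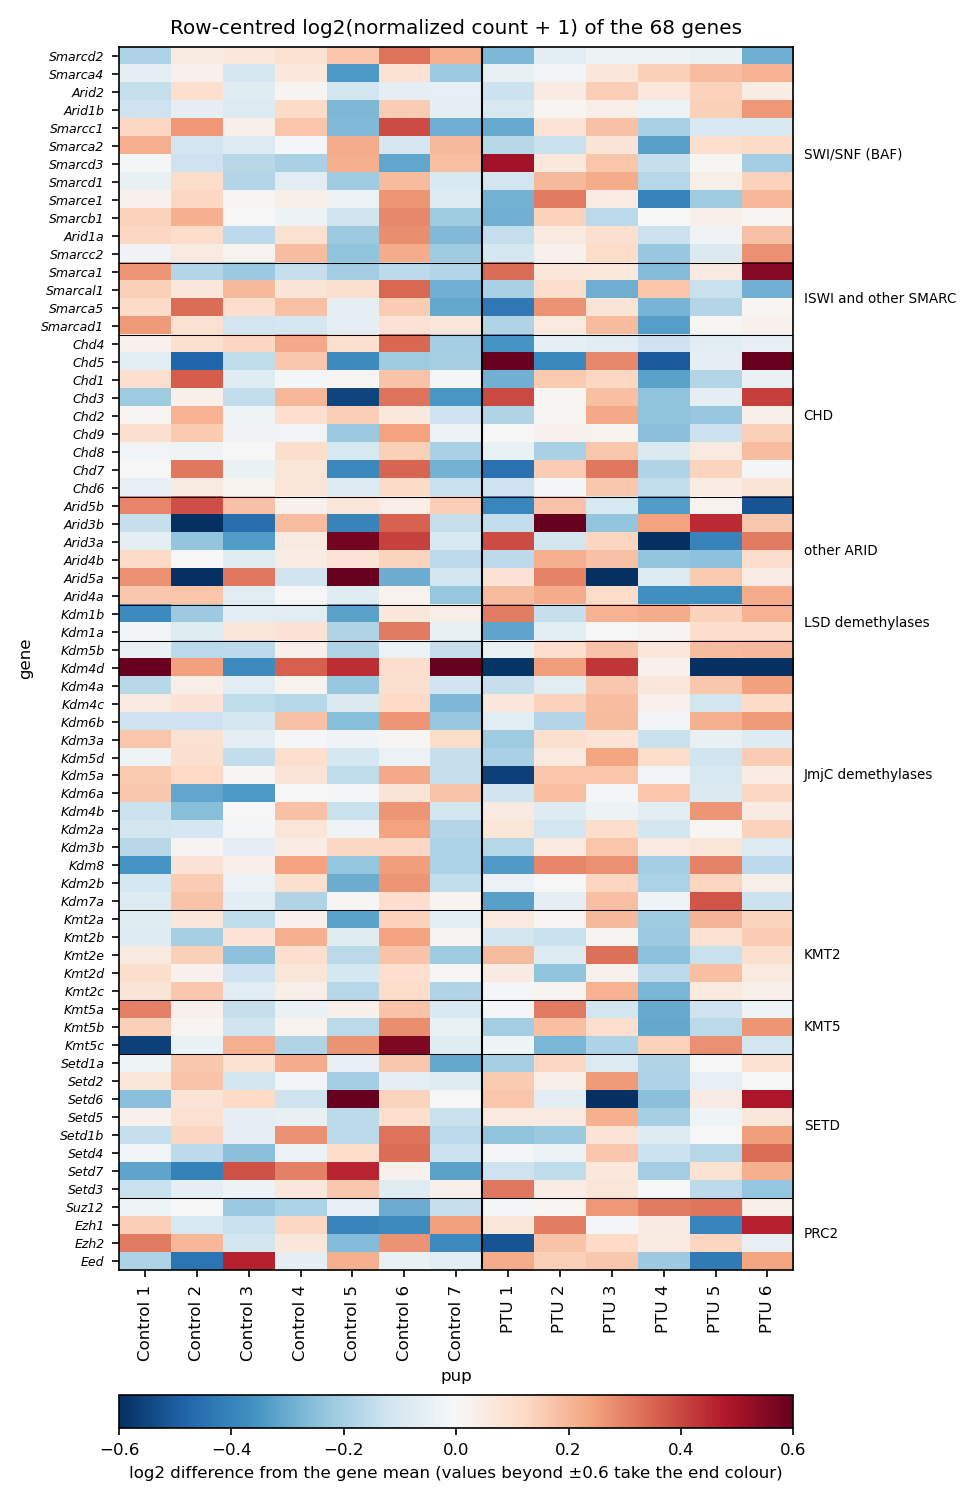
Log2(normalized count + 1) of each of the 68 genes (vertical axis, by family) minus its mean over the 13 pups, with 1 column for each pup. Red is above and blue below the gene's mean, and values beyond 0.6 take the end colour. PTU replicates 1 and 6 hold the highest values for *Chd5*, *Chd3* and *Smarca1* (red) and the lowest for *Arid5b* (blue). For *Arid5b*, PTU replicate 4 (-0.34) is close to replicate 1 (-0.39).

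Pairs of genes were also set against each other within each pup. Their products take the same place in a complex, act on the same mark or, for *Suz12*, are different subunits of PRC2. The 12 pairs were chosen with values known, so they are described without a test, and the log2 ratios are of normalized counts and not per length, so their level does not rank the genes of a pair. *Chd3* to *Chd4* had log2 ratios of -0.60, -0.09 and 0.03 in control pups and -0.07, 0.21 and 0.80 in PTU exposed pups (lowest, median, highest). Of the PTU exposed pups 5 were above the highest control, and the mean difference was 0.44. PTU replicates 1 and 6 were the highest, and without them it was 0.25. *Kdm1b* to *Kdm1a* had -2.62, -2.40 and -2.18 against -2.34, -2.10 and -1.64, with 4 of 6 PTU exposed pups above the highest control. *Smarcd1* to *Smarcd2* had 3.03, 3.25 and 3.55 against 3.27, 3.61 and 3.84, also with 4 above. *Suz12* to *Ezh2*, different subunits that act together in PRC2, had -0.72, -0.36 and 0.09 against -0.31, 0.02 and 0.35, with 2 above. The mean difference of *Chd5* to *Chd4* was 0.63, and 0.20 without PTU replicates 1 and 6. *Arid1b* to *Arid1a* and *Ezh1* to *Ezh2* had mean differences of 0.09 and 0.18 with 0 PTU exposed pups above the highest control, the latter turning to -0.05 without those pups. The groups overlapped in all 12 pairs.

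**Figure D5:**
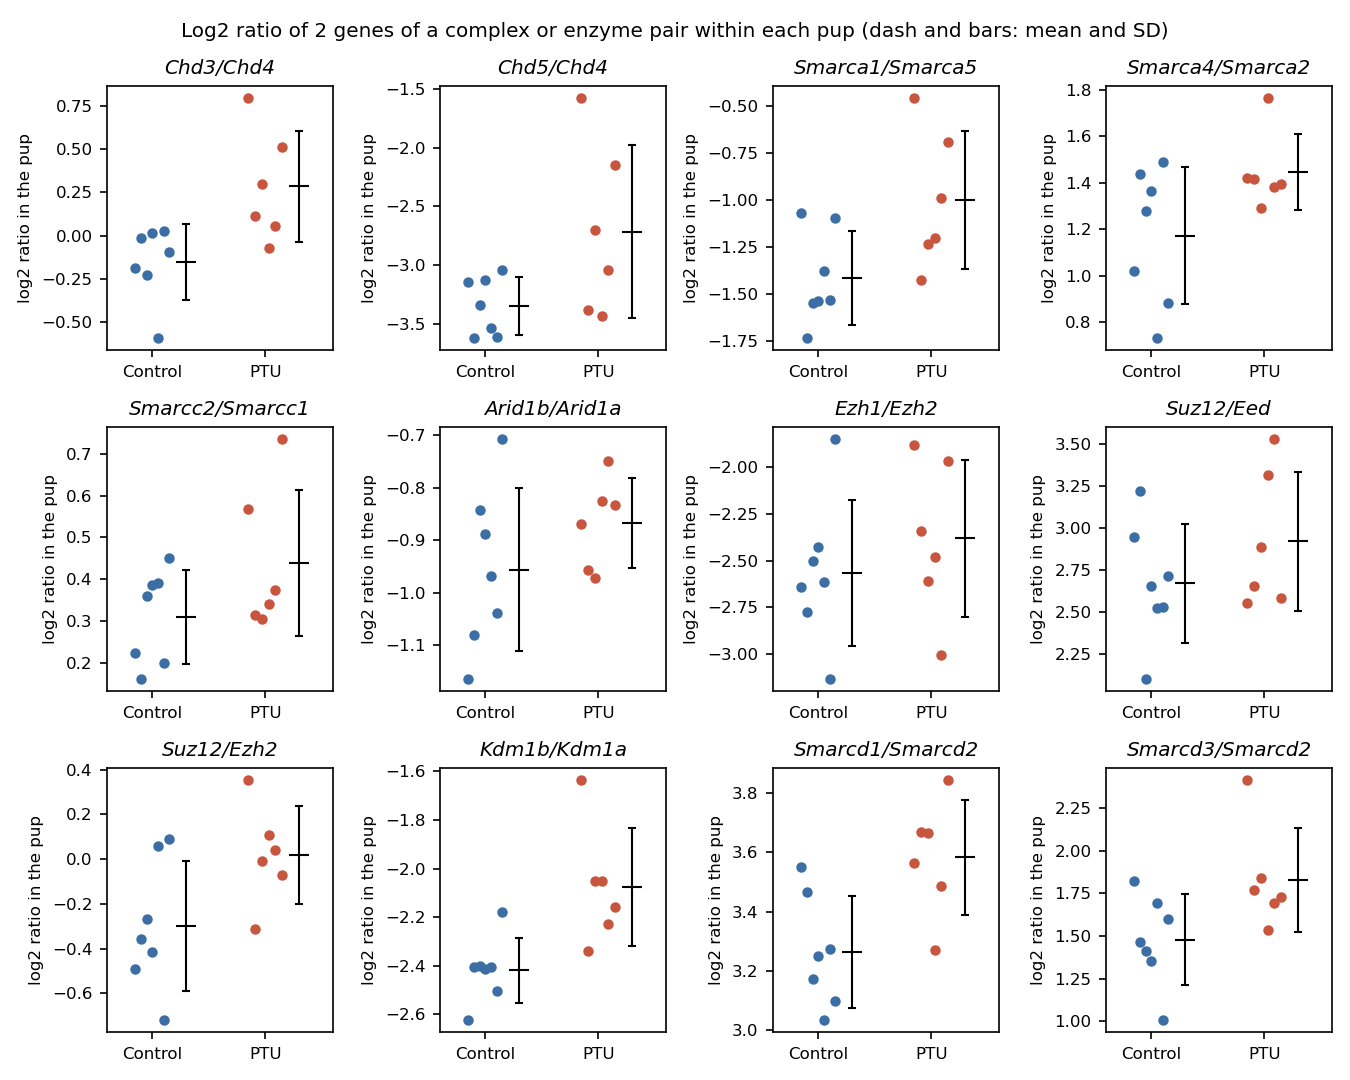
Log2 ratio of the normalized counts of 12 pairs of genes in each pup (vertical axes, each with its own range), for 7 control (blue) and 6 PTU exposed pups (red), with the mean and SD. For *Chd3* to *Chd4*, 5 of 6 PTU exposed pups lie above the highest control of 0.03, and the groups overlap in every panel.

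Other subunits and enzymes of the same systems were listed by name, and 115 of 124 were measured in 116 rows. In limma 0 rows had an adjusted p of at most 0.05, while 12 were higher and 3 lower at an unadjusted p under 0.05 (12.9%), against 16.3% of all rows. The SWI/SNF partners had 10 values above 0 and 7 below, from -0.25 to 0.55. They held 5 of the higher rows among 17, where 8.11% of all rows were higher. These were *Dpf1*, a subunit of the neuronal complex (log2 fold change 0.55), *Bcl11b* (0.47) and *Bcl11a* (0.39), zinc finger factors of cortical neurons, *Ss18l1*, the neuronal CREST subunit (0.33), and *Bicral* of the non-canonical complex (0.32). Whether cell content has a part in these values was not tested.

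Polycomb repressive complex 1 (PRC1), which ubiquitinates histone H2A, held 3 higher rows of 18 (8.11% of all rows were higher). *Rybp*, which stimulates the variant complexes, had 1635 ± 156 normalized counts in control pups (SD, n = 7) and 2161 ± 275 in PTU exposed pups (SD, n = 6). Its log2 fold change was 0.40 (SE 0.09; exact permutation test, two-sided, p = 0.00233; limma adjusted p = 0.122), and *Pcgf3* and *Phc3* had 0.25 and 0.23. Among 6 PRC2 partners *Mtf2*, which helps to bring PRC2 to CG-rich DNA, was higher at an unadjusted p under 0.05 (0.29). In the NuRD list *Cdk2ap1* was higher (0.26) and *Mta2* lower (-0.23) of 11 rows, and in the ISWI list both rows of *Pole3* were lower of 10 (-0.27 and -0.32). *Ncoa6* (0.20) was 1 of 9 rows of the COMPASS list and *Ehmt1* (0.16) 1 of 22 among the other methyltransferases. No row of the 18 INO80, SRCAP and TIP60 remodelers or of the 7 other demethylases had an unadjusted p under 0.05 in limma.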

How the data were processed

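RNA from the laser captured posterior VZ of 7 control and 6 PTU exposed pups was sequenced as stranded total RNA. Per the study's methods this RNA showed some degradation, while slide control cells from the hippocampus had intact RNA. The authors trimmed the reads (Trimmomatic), used STAR 2.7.8a to align them to mRatBN7.2, estimated transcript counts in Partek Flow (E/M model) and normalized these by median ratio. The deposited values are thus a non-negative signal, here named normalized counts. A RefSeq annotation is named in the methods, but the rows have Ensembl identifiers. Reads of similar transcripts are divided by a model, so values of close paralogs are uncertain. The authors' own comparison columns (p-values, FDR, ratios and fold changes, group means) were not used.

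The study's DESeq2 comparison needs counts and could not be run on normalized values. Between 88.7 and 90.4% of values from 20 to 150 were whole multiples of 1 step per pup (tolerance 0.05 reads), under the 95% required, so no count model was used. Rows averaging 10 or more were compared as log2(normalized count + 1) with limma 3.58.1 (variance trend, R 4.3.3) and Benjamini-Hochberg adjustment at 0.05. Single genes also had an exact permutation test over 1716 regroupings of the pups. Tested on simulated data of this comparison, limma called 18, 43, 45 and 50 of 50 rows with log2 changes of 0.5, 1, 2 and 4, and 9 of 14406 unchanged rows. Replicate numbers belong to different litters.

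The genes, families and lists were chosen with earlier results of these data known. Named with values were the gene with the lowest unadjusted p of each of 10 families, each gene with an unadjusted p under 0.05 or separated groups, and 26 core subunits, 25 of them measured (*Kdm5c* was not analysed here). Any other gene given a value, such as *Arid3b*, *Kdm4d* or *Smarcd1*, was chosen after its value was seen. Alternatives were pseudocounts of 0.1 and 10, no filter, a mean of at least 100, TMM (written out in R), quantile and same-total scaling, rows summed by gene, array weights, no variance trend, a replicate block, each pup left out and, added after the data were seen, both PTU exposed pups with the highest neuron sums left out.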

Additional observations from a re-analysis of the deposited data

Results flagged for a closer look

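Among 62 groups of pups (31 named genes in each group), 3 held a pup that stood far from the others of its group, and chance alone gives about 1 in 20. *Chd4* was 11341.4 normalized counts in PTU replicate 1, with the nearest PTU exposed pup at 13275.7. *Ezh2* was 1445.61 in the same pup, with the nearest at 2003.82. *Smarca1* was 1611.87 in control replicate 1, with the nearest control pup at 1218.46. PTU replicate 1 also had the highest neuron marker sum, 135113, and a radial glia and VZ sum of 72736, under that of every control pup.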

How the results depend on the processing

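The count of genes with an adjusted p of at most 0.05 was 0 of 68 in all 25 alternatives. The count at an unadjusted p under 0.05 was 5 to 9 with each pup left out in turn (12.3 to 20.5% of all rows), 8 (11.8%) with the replicate block (20.2% of all rows), and 3 (*Arid3b*, *Kdm5b*, *Suz12*) without both PTU exposed pups with the highest neuron sums, where all rows gave 1472 (10.1%). *Suz12* and *Kdm5b* were under 0.05 in 25 of 25 alternatives, *Kdm1b* in 24, *Arid5b* in 23, *Chd4* in 20 and *Smarca1* in 10. Over all rows, the adjusted count was 40 with array weights, 18 with the replicate block, and 0 to 179 with each pup left out (179 without PTU replicate 2 and 7 without control replicate 6). Scaling to the same total moved the median of the 68 genes to 0.21 and of all rows to 0.20. The cause was not tested.

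Of 775 values of named genes, 723 kept their direction and 52 turned, and 17 of 31 genes did not turn in any alternative. With the same total, values turned to 0.19 (*Chd7*), 0.17 (*Ezh2*), 0.15 (*Kdm1a*), 0.18 (*Kmt2d*), 0.12 (*Kmt5a*), 0.12 (*Setd1a*), 0.10 (*Smarca2*), 0.038 (*Smarca5*), 0.12 (*Smarcb1*), 0.071 (*Smarcc1*) and 0.20 (*Smarcc2*). With array weights they turned to 0.062 (*Chd7*), -0.060 (*Eed*), 0.050 (*Ezh2*) and 0.0078 (*Kmt2d*), and with quantile scaling to -0.0083 (*Chd8*). With the replicate block they turned to -0.032 (*Arid1a*) and -0.0072 (*Chd8*), and without both PTU exposed pups to 0.10 (*Chd7*), -0.0066 (*Chd8*), -0.068 (*Eed*) and 0.10 (*Ezh2*). With each pup left out in turn, the genes that turned ranged from -0.032 to 0.058 (*Arid1a*), -0.076 to 0.077 (*Chd7*), -0.011 to 0.065 (*Chd8*), -0.034 to 0.13 (*Eed*), -0.096 to 0.070 (*Ezh2*), -0.082 to 0.0095 (*Kdm1a*), -0.065 to 0.020 (*Kmt2d*) and -0.057 to 0.044 (*Smarcc2*).

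Same-numbered pups of the groups had correlations of -0.07 to 0.20, and 3 of 6 matched best with their own number. In simulated data limma called 18 of 50 rows changed by 0.5 on the log2 scale, and all but *Kdm4d* of the 68 genes differed by less than that. *Kdm4d* rested on 7.11 to 40.0 normalized counts per pup. P-values measure the spread between these 13 litters only.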
